A study of Capra hircus with 9 samples.

Results

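miR-126 was read in 4 of the 2189 mature miRNA entries counted in goat submandibular gland, the salivary gland under the jaw. The members were taken by name, as every entry numbered miR-126, with or without the goat prefix chi- and whatever its arm. They were chi-miR-126-3p and chi-miR-126-5p, the products of the 2 arms of the hairpin, and miR-126-y and miR-126-x, entries named without a species that cover the same 2 arms with other ends. All 4 were abundant enough to be tested, among 937 of the 2189 entries. The study took the gland of 9 healthy female Lubo goats kept under shared conditions with natural light and food at will, 3 at 1 month, 3 at 12 months and 3 at 24 months, with no treatment and 1 small RNA library from the total RNA of each goat. Libraries are named by age and by the number in their titles, as 1-month 1, 2 and 3, 12-month 3, 4 and 5, and 24-month 2, 3 and 5.

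miR-126 is known as the miRNA of endothelial cells, the lining of blood vessels. It lies in an intron of EGFL7, a gene for a secreted protein of endothelium, and in the RefSeq annotation of the goat genome ARS1.2 the gene MIR126 falls within the span of EGFL7. In mouse and zebrafish its 3p arm keeps vessels intact by lowering SPRED1 and PIK3R2, both brakes on the signal of the growth factor VEGF. The 5p arm is best known in mouse for lowering DLK1, an inhibitor of Notch, and so for sustaining endothelial renewal. In a bulk library the level of miR-126 depends, among other things, on how many vessel cells the gland piece held and how much each made. As a part of the library's counts it also depends on the other miRNAs read, and these cannot be told apart.

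The listed sequences show how the 4 entries relate, and which of them would read targets through another seed. Bases 2 to 8, the seed that chooses targets, are in capitals, 5′ to 3′, in the DNA letters of the deposited table.
chi-miR-126-3p: tCGTACCGtgagtaataatgc
miR-126-y: cGTACCGTgagtaataatgcga
chi-miR-126-5p: cATTATTActtttggtacgcgc
miR-126-x: cATTATTActtttggtacgcgaa
miR-126-y shared a run of 20 bases with chi-miR-126-3p but began 1 base later and ran on by 2 bases, so its seed was moved by 1 base. miR-126-x shared the first 21 bases of chi-miR-126-5p and the same seed, and differed only in its end, aa in place of c. Neither was therefore a plain extension of the goat-named entry. The 2 seeds of the 3p arm occurred in no other of the 2189 entries, and the seed of the 5p arm occurred only in chi-miR-126-5p and miR-126-x. Outside the family no entry shared a run longer than 8 bases with any of the 4. The sources used here do not say how reads with other ends were divided between the 2 entries of an arm.

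The 4 entries together took 1.01%, 0.441% and 1.45% of all counts in 1-month libraries 1, 2 and 3. They took 0.939%, 0.781% and 0.864% in 12-month libraries 3, 4 and 5, and 0.693%, 0.731% and 0.748% in 24-month libraries 2, 3 and 5. The 1-month libraries thus held both the lowest and the highest share of miR-126, and the later ages lay between them. The means were 0.968 ± 0.507% at 1 month, 0.862 ± 0.0792% at 12 months and 0.724 ± 0.0281% at 24 months (SD, n = 3 each). Library totals ran from 8288492 to 13277448 counts, so the Wilson 95% interval of a share was narrow, for example 0.438 to 0.445% in 1-month 2, and covers counting error only. The goat-named entries made up 86.8% to 93.5% of the family's counts.

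The library 1-month 2, with the least miR-126, stood apart from the others in its markers of other cell types. Its leukocyte list (miR-142, miR-150, miR-155, miR-223, miR-146 and miR-342, 22 entries) took 12.7% of counts, against 3.73% and 5.78% in 1-month 1 and 3 and 0.477% to 0.712% at the later ages. Its smooth muscle list (miR-143 and miR-145, miRNAs of the vessel wall, 8 entries) took 0.762%, against 5.09% to 8.63% in the other 8 libraries. Its epithelium list (24 entries, miR-200 and its relatives among them) took 0.875%, against 3.97% to 11.9%, and its gland list (miR-148 and miR-375, 8 entries) 1.38%, against 6.48% to 17.9%. The red cell list took 0.0735% to 0.403% and the striated muscle list 0.0150% to 0.247% over all libraries, and every miRNA of these lists had counts. The smooth muscle list was lowest where miR-126 was lowest, in 1-month 2, and highest where miR-126 was highest, in 1-month 3. The epithelium and gland lists were also lowest in 1-month 2. At the later ages the orders of smooth muscle and miR-126 agreed only in part. 12-month 4 had the least of both at its age, while 24-month 5 had the least smooth muscle (5.09%) and the most miR-126 (0.748%) of its age. The part of these other cells in the miR-126 values was not tested.

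**Figure D1:**
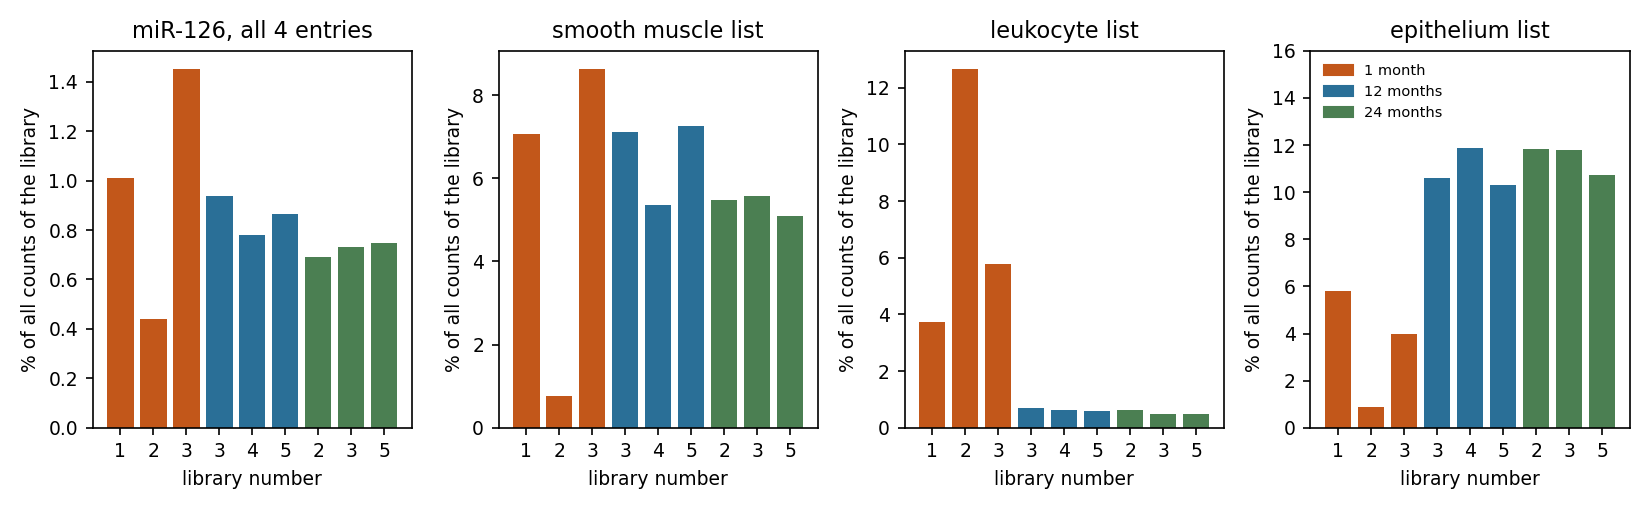
Share of all counts of each library (%, bars) taken by the 4 miR-126 entries and by the smooth muscle, leukocyte and epithelium lists, with 1 bar a library, coloured by age. 1-month 2 has the least miR-126 (0.441%), the least smooth muscle (0.762%) and the most leukocyte miRNAs (12.7%).

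Levels are given below as CPM, read counts relative to the library total after TMM scaling (a correction for differences in composition between libraries), with SD and n = 3 an age. chi-miR-126-3p, the arm that brakes SPRED1, stood at 4665, 2371 and 6732 CPM in 1-month 1, 2 and 3. It stood at 5003, 3307 and 4352 CPM in 12-month 3, 4 and 5, and at 3716, 3379 and 3955 CPM in 24-month 2, 3 and 5. The ranges overlapped between all ages, and the widest was that of 1 month, 2.84 times from lowest to highest, against 1.51 times at 12 months and 1.17 times at 24 months. Its means were 4589 ± 2182, 4221 ± 855 and 3683 ± 290 CPM at 1, 12 and 24 months, and by unscaled CPM it ranked 41, 43 and 44 among the 2189 entries.

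chi-miR-126-5p, the arm linked to DLK1, stood at 3257, 1824 and 4425 CPM at 1 month, in the same order of libraries. It stood at 4110.4, 3135 and 4001 CPM at 12 months, and at 2804, 3368 and 3369 CPM at 24 months. As for the other arm, both the lowest and the highest library were 1-month ones. The means were 3168 ± 1303, 3749 ± 534 and 3180.1 ± 326 CPM, at ranks 51, 47 and 50.

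miR-126-y, the 3p form with the moved seed, stood at 549.9, 415 and 687 CPM in the 1-month libraries and at 762, 825 and 876 CPM in the 12-month ones. In 24-month 2, 3 and 5 it stood at 607, 799 and 886 CPM. After TMM scaling all 3 libraries of 12 months lay above all 3 of 1 month, while 24-month 2 lay within the 1-month range. Unscaled the ages overlapped, with 836 CPM in 1-month 3 above 714 and 808 CPM in 12-month 3 and 5. Its means were 551 ± 136, 821 ± 57.0 and 764 ± 143.04 CPM.

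miR-126-x, the rarest entry, stood at 79.2, 49.2 and 88.8 CPM in the 1-month libraries and at 147.8, 152 and 137 CPM in the 12-month ones. In 24-month 2, 3 and 5 it stood at 93.0, 195 and 212 CPM. After TMM scaling every library of the later ages lay above every 1-month library, 24-month 2 only just. Unscaled, 24-month 2 at 89.3 CPM lay below 1-month 1 and 3 at 93.5 and 108 CPM, while the 12-month libraries stayed above all of 1 month. Its means were 72.4 ± 20.7, 145.5 ± 7.78 and 167 ± 64.3 CPM.

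**Figure D2:**
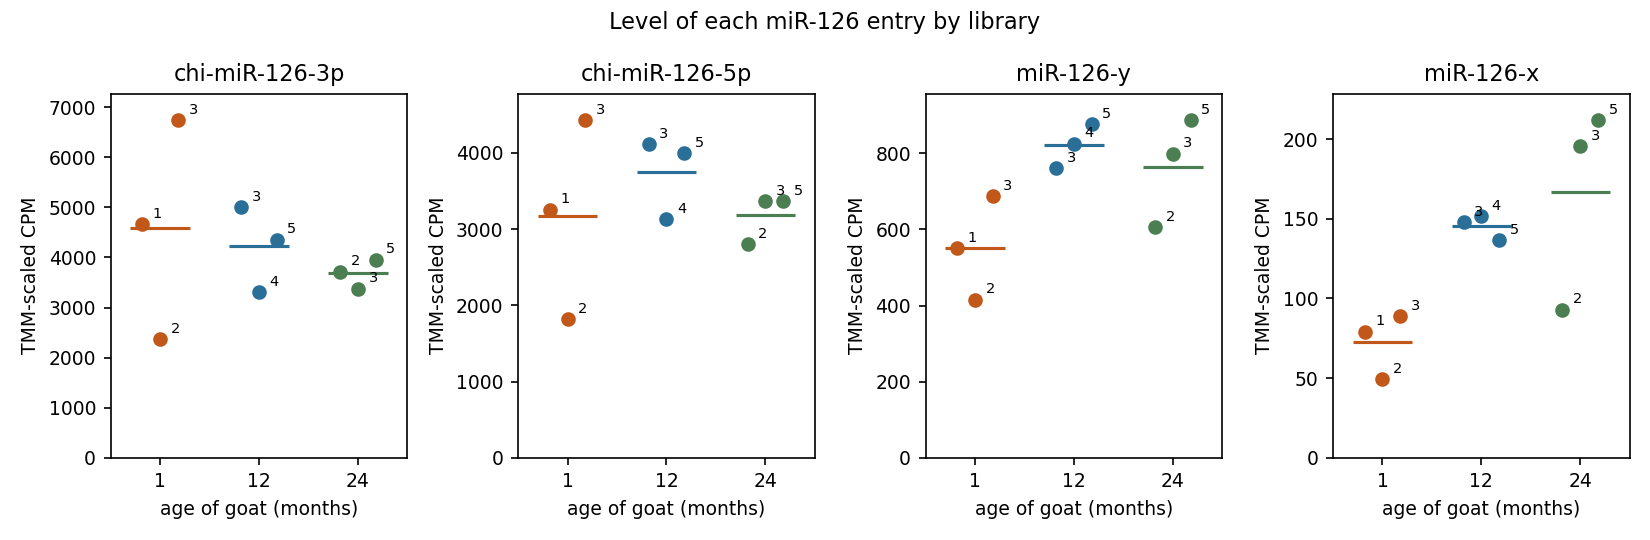
TMM-scaled CPM of each miR-126 entry (y axis, from 0) against age in months (x axis); points are libraries with their numbers, bars the means of 3 goats. The goat-named entries overlap between all ages and spread most at 1 month (2371 to 6732 CPM for chi-miR-126-3p), while miR-126-x lies higher at 12 and 24 months than at 1 month in every library on this scale, but not in 24-month 2 unscaled (89.3 CPM, against 93.5 and 108 CPM in 1-month 1 and 3).

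The goat-named arms did not pass the test in any comparison of ages. All 937 tested entries were fitted together (edgeR, quasi-likelihood test, Benjamini-Hochberg adjustment over all 937 within a comparison, threshold 0.05). Errors after log2 fold changes are standard errors worked back from the statistic of that test, and the 95% intervals rest on them. Between 1 and 12 months 0 of the 4 miR-126 entries were called, where 180 of 937 entries (19.2%) were. chi-miR-126-3p had a log2 fold change of −0.12 (SE 0.39, 95% interval −0.98 to 0.73, adjusted p = 0.834), and chi-miR-126-5p of 0.24 (SE 0.36, interval −0.55 to 1.03, adjusted p = 0.631). These intervals allow chi-miR-126-3p to lie between 0.508 and 1.66 times, and chi-miR-126-5p between 0.683 and 2.05 times, its level at 1 month. The forms with other ends had larger values that did not pass either, 0.58 (SE 0.32, unadjusted p = 0.102, adjusted p = 0.203) for miR-126-y and 1.01 (SE 0.40, unadjusted p = 0.0295, adjusted p = 0.088) for miR-126-x. Leaving out 1 library at a time moved these values between 0.11 and 0.78 for miR-126-y and between 0.63 and 1.19 for miR-126-x, in both cases lowest without 12-month 5 and highest without 1-month 3. The median of all tested entries was −0.448 without 12-month 5, beside −0.017 in the main fit. Relative to that median both forms were lowest without 1-month 2, at 0.31 and 0.695, beside 0.592 and 1.024 in the main fit. By TMM-scaled CPM both were higher in 3 of 3 goats than in any 1-month goat, as were 26.3% of all tested entries, and unscaled this held for miR-126-x and not for miR-126-y.

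Between 12 and 24 months 0 of the 4 entries were called, and 0 of 937 in all (0%). Of the 937, 40 had an unadjusted p under 0.05 by edgeR, and DESeq2 and limma voom also called 0, with 42 and 13 at that unadjusted level. The log2 fold changes were −0.20 (SE 0.39, interval −1.05 to 0.66) for chi-miR-126-3p and −0.24 (SE 0.36, interval −1.03 to 0.56) for chi-miR-126-5p. They were −0.10 (SE 0.32) for miR-126-y and 0.20 (SE 0.40) for miR-126-x, each of the 4 with an adjusted p of 0.998.

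Between 1 and 24 months 1 of the 4 entries was called, where 246 of 937 (26.3%) were. It was miR-126-x, the form ending in aa, which rose by 1.204 (SE 0.40, interval 0.31 to 2.09, adjusted p = 0.0487, higher in 3 of 3 goats by TMM-scaled CPM, as were 21.3% of all tested entries, and in 2 of 3 unscaled). This call lay at the threshold: it was lost on leaving out any 1 of the 9 libraries, at log2 fold changes from 0.81 to 1.40 and adjusted p from 0.0534 to 0.232. Each of these fits was filtered and scaled anew. The median of all tested entries lay between −0.391 and −0.068 in them, beside −0.065 in the main fit. Relative to that median miR-126-x stood at 1.034 to 1.699, beside 1.268 in the main fit. chi-miR-126-3p had a value of −0.32 (SE 0.39, interval −1.17 to 0.54, adjusted p = 0.575), chi-miR-126-5p of 0.01 (SE 0.36, interval −0.79 to 0.80, adjusted p = 0.992) and miR-126-y of 0.47 (SE 0.32, adjusted p = 0.292). Without 1-month 2, chi-miR-126-3p stood at −0.66 with an adjusted p of 0.072. In the test for a difference between any of the 3 ages 0 of the 4 were called, against 192 of 937 (20.5%), with adjusted p of 0.809 for chi-miR-126-3p, 0.826 for chi-miR-126-5p, 0.359 for miR-126-y and 0.102 for miR-126-x.

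**Figure D3:**
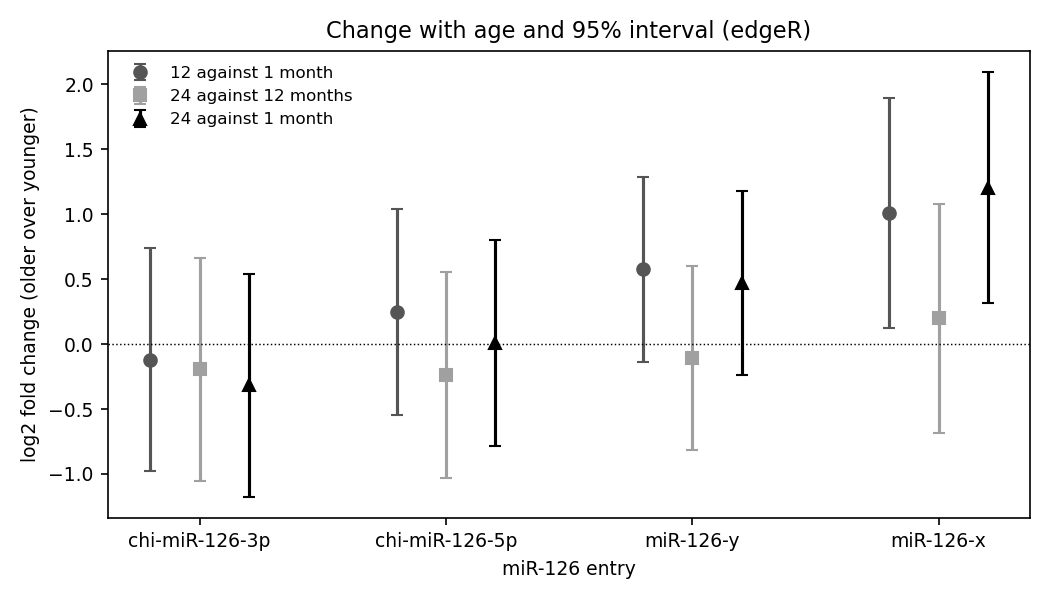
log2 fold change of each miR-126 entry (y axis) in the 3 comparisons of ages (symbols), with bars for the 95% interval worked back from the test statistic. The intervals of miR-126-x at 12 and at 24 months against 1 month (0.12 to 1.89 and 0.31 to 2.09) lie above 0, and all others shown take in 0. The intervals are not adjusted for the number of entries tested. The edgeR adjusted p of these 2 changes was 0.088 (not called) and 0.0487, the latter lost on leaving out any 1 library.

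The SD of log2 CPM was 0.43 for chi-miR-126-3p and 0.38 for chi-miR-126-5p, where 9.71% and 7.04% of the 937 entries had a smaller SD and the median entry had 0.86. It was 0.36 for miR-126-y (5.76% smaller) and 0.68 for miR-126-x (33.7% smaller). This spread takes in changes between ages. The comparison is with all 937 tested entries whatever their level, and entries with few reads also vary through counting error. No comparison with entries of like abundance was made. Within ages the pooled SD was 0.48 for chi-miR-126-3p and 0.40 for chi-miR-126-5p, beside a median of 0.66, and 25.2% and 16.01% of the tested entries had a smaller one. The arms spread most in the youngest goats. For chi-miR-126-3p the SD was 0.76 within 1 month, 0.30 within 12 months and 0.11 within 24 months, beside medians of 0.78, 0.37 and 0.45 over all tested entries. For chi-miR-126-5p these were 0.65, 0.22 and 0.15.

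Both arms of miR-126 were read at nearly equal levels, closer to even than all but 3 of 124 goat-named miRNAs when the goat-named entries alone were compared. In most miRNAs 1 arm is mostly discarded once the hairpin is cut. The number of chi-miR-126-5p reads for each chi-miR-126-3p read was 0.698, 0.769 and 0.657 in 1-month 1, 2 and 3. It was 0.822, 0.948 and 0.919 in 12-month 3, 4 and 5, and 0.754, 0.997 and 0.852 in 24-month 2, 3 and 5. The 3p arm was the larger in 9 of 9 libraries, and nearly even with the 5p arm in 24-month 3. With miR-126-x and miR-126-y added to their arms the ratio was lower, from 0.608 in 1-month 3 to 0.853 in 24-month 3. Over the 124 goat-named miRNAs with both arms tested, the absolute mean log2 ratio had a median of 4.12 and ran from 0.03 to 12.09, beside 0.29 for chi-miR-126 and 0.48 with its other forms added. The 3 pairs closer to even were chi-miR-195, chi-miR-221 and chi-miR-376b, named after their values were seen, and the 3p arm was the larger in 50 of the 124 pairs.

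**Figure D4:**
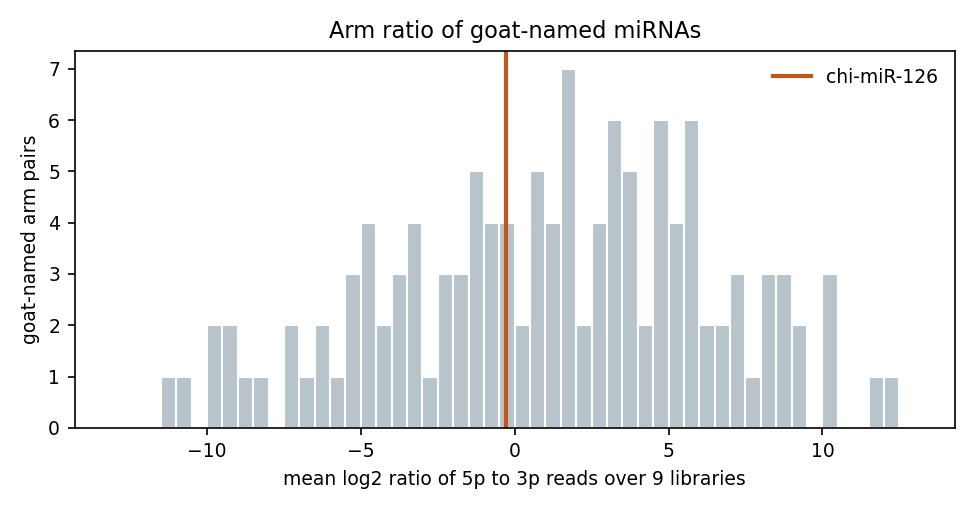
Histogram of the mean log2 ratio of 5p to 3p reads over the 9 libraries (x axis) for 124 goat-named miRNAs with both arms tested (y axis, number of pairs). The line marks chi-miR-126, close to 0, where the median pair is 4.12 from even in either direction.

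The arm ratio is a value within a library and does not depend on scaling between libraries. It was 0.708 ± 0.0567 at 1 month, 0.896 ± 0.0662 at 12 months and 0.868 ± 0.122 at 24 months (SD, n = 3). All 3 ratios of 12 months lay above all 3 of 1 month, a difference of 0.34 on the log2 scale (exact two-sided permutation p = 0.1, the smallest that 3 against 3 can give, and 0.3 adjusted over the 3 pairs of ages). Among the 124 pairs, 10.5% were higher at 12 months without overlap. The 24-month ratios overlapped those of 1 month through 24-month 2, with a difference of 0.29 (exact permutation p = 0.2, adjusted p = 0.3), and those of 12 months, with a difference of −0.05 (exact permutation p = 0.7, adjusted p = 0.7). The difference between 1 and 12 months did not reach the threshold, which this number of goats cannot reach, and 1-month 2 had the highest ratio of its age.

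The share of the form ending in aa was lower in every 1-month goat than in any older goat. miR-126-x made up 2.37%, 2.62% and 1.97% of the 5p reads (miR-126-x plus chi-miR-126-5p) in 1-month 1, 2 and 3. It made up 3.47%, 4.62% and 3.31% in 12-month 3, 4 and 5, and 3.21%, 5.49% and 5.91% in 24-month 2, 3 and 5. No later library overlapped the 1-month range, and the means were 2.32 ± 0.332%, 3.80 ± 0.715% and 4.87 ± 1.45%. The Wilson 95% intervals, 2.43 to 2.84% for the highest 1-month library and 3.02 to 3.42% for the lowest later one, did not meet, but they cover counting error only. No test was run on these shares, since by sequence the entries were not longer forms of each other.

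miR-126-y, the form with the moved seed, made up 10.5%, 14.9% and 9.26% of the 3p reads in the 1-month libraries and 13.2%, 20.0% and 16.7% in the 12-month ones. In 24-month 2, 3 and 5 it made up 14.0%, 19.1% and 18.3%. The highest 1-month library, 1-month 2, overlapped the lowest of each later age, and without it the 1-month values lay below all 6 later ones. The means were 11.6 ± 2.96%, 16.6 ± 3.38% and 17.2 ± 2.74%. Among 19 named entries that began 1 base after the goat-named miRNA they matched, with a shared run of at least 16 bases, miR-126-y ranked 5 by mean share. The 19 include miR-126-y, and some carry another number than their match, such as miR-215-x beside chi-miR-192-5p.

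Entries matched by sequence to other goat-named miRNAs also varied between these libraries. Over 178 named entries that shared a run of at least 16 bases with a tested goat-named entry, the median share was 5.91%, 6.12% and 5.42% in 1-month 1, 2 and 3, 3.91%, 6.78% and 4.59% in 12-month 3, 4 and 5, and 4.53%, 7.50% and 7.12% in 24-month 2, 3 and 5. Within the later ages, the libraries with the highest median, 12-month 4 and 24-month 3 and 5, also had the highest share of miR-126-x and of miR-126-y. The 1-month libraries did not have lower medians than 12-month 3 and 5, though their share of miR-126-x was lower. The 178 entries include miR-126-x and miR-126-y, and some named for another miRNA than their match, such as miR-107-y beside chi-miR-103-3p. Of the 178, 10.7% had shares that were higher at 12 months than at 1 month without overlap, and 18.5% at 24 months, as miR-126-x did. The part of this shared movement in the miR-126 shares was not tested.

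**Figure D5:**
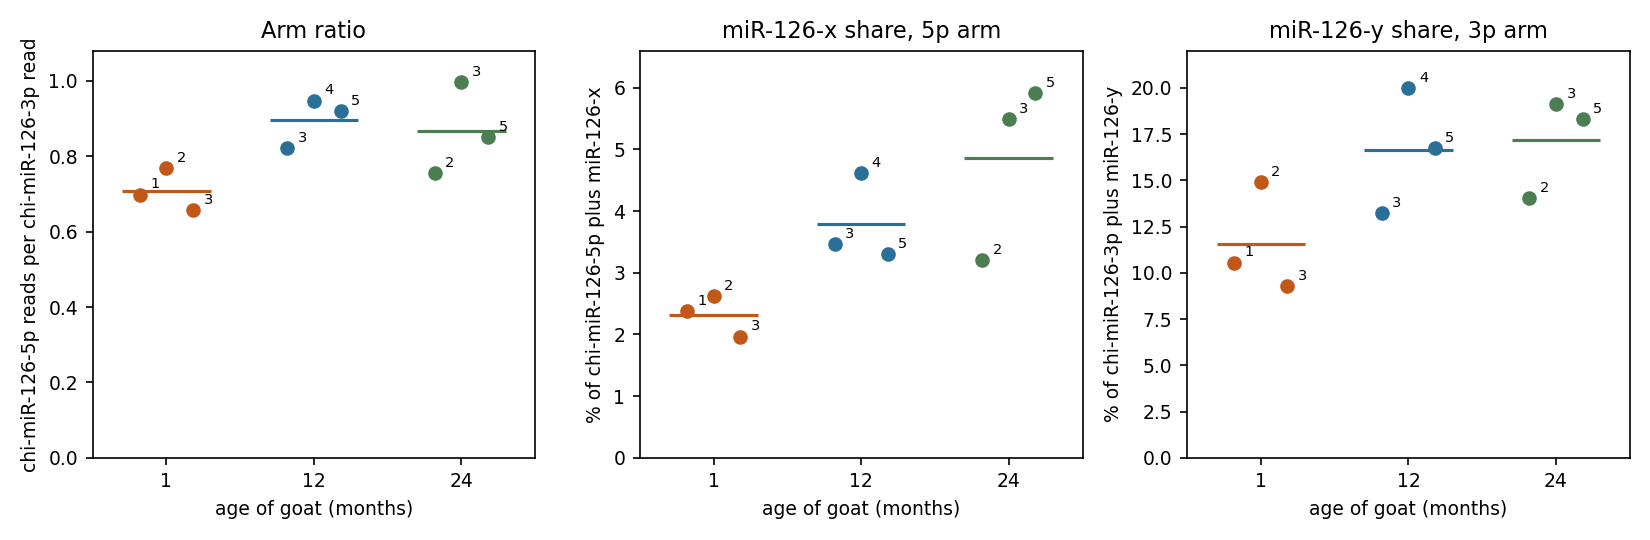
Ratios within each library against age in months: reads of chi-miR-126-5p for each read of chi-miR-126-3p (left), and the shares of miR-126-x and of miR-126-y in their arms (%, middle and right); points are libraries with their numbers, bars the means of 3 goats. The share of miR-126-x is at most 2.62% in the 1-month libraries and at least 3.21% in the others.

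Among other miRNAs tied to vessel growth, entries were called in both directions. The list held 48 entries of miR-221, miR-222, miR-130a, miR-23, miR-24, miR-27, miR-210, miR-132, miR-218, miR-296, miR-424, miR-503 and miR-10, of which 43 were tested. Between 1 and 12 months 3 rose and 3 fell, with a median log2 fold change of −0.15 beside −0.02 over all tested entries. These 6 calls were 14% of the list, where 19.2% of all tested entries were called, and without 1-month 2 the median was −0.002. By direction, 6.98% of the list rose and 6.98% fell, beside 5.98% and 13.2% of all tested entries. Between 1 and 24 months 6 rose and 4 fell (median 0.07 beside −0.07), 23.3% of the list where 26.3% of all tested entries were called. Here 14% of the list rose and 9.3% fell, beside 8.75% and 17.5% of all tested entries. Between 12 and 24 months 0 were called (median 0.07 beside −0.03). The 3 most abundant, chi-miR-27b-3p, chi-miR-24-3p and chi-miR-23b-3p, which come from clusters active in endothelium, did not pass between 1 and 12 months, at 0.96 (adjusted p = 0.0635), 0.70 (adjusted p = 0.191) and 0.72 (adjusted p = 0.299).

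The falls between 1 and 12 months were 3 entries of miR-296, a miRNA that growth factors induce in human endothelium, with chi-miR-296-3p going from 306 ± 165 to 107 ± 6.68 CPM (−1.51, SE 0.40, adjusted p = 0.0256). It stood at −0.998 without 1-month 2 and was lost without 12-month 4 (adjusted p = 0.0909). miR-296-x, its other arm, fell by 2.01 and kept its call without each of the 9 libraries, and miR-296-y fell by 1.73 and lost its call without 1-month 1 or 2 or 12-month 3 or 4. The same 3 fell between 1 and 24 months, by 1.45 for chi-miR-296-3p, 2.09 for miR-296-x and 1.86 for miR-296-y. Of these calls only that of miR-296-x held without each of the 9 libraries, and the others were lost without 24-month 3 or 5. chi-miR-221-3p, which lowers the receptor KIT in human endothelium, also fell between 1 and 24 months (−1.41, adjusted p = 0.0483), a call lost without any 1 of the 1-month libraries, 12-month 4 or 24-month 2 or 3. The rises between 1 and 12 months were miR-27-y (1.25, adjusted p = 0.0228), miR-24-y (1.10, adjusted p = 0.0446) and miR-210-z (1.17, adjusted p = 0.0288), the last of a miRNA induced by low oxygen. Each of these 3 calls was lost on leaving out any 1 of the 6 later libraries, and also without 1-month 1 for miR-27-y or 1-month 3 for miR-24-y and miR-210-z. Between 1 and 24 months these 3 rose again, together with chi-miR-23b-5p (1.29, adjusted p = 0.0382), chi-miR-27b-5p (1.09, adjusted p = 0.0461) and miR-210-y (1.33, adjusted p = 0.0446). The call of miR-27-y was then lost without 24-month 3 or 5. The other 5 were lost without any 1 of the 6 later libraries or 1-month 3, and all of them but miR-24-y also without 1-month 1. Each fit without a library was filtered and scaled anew. For 12 against 1 month the median of all tested entries was −0.017 in the main fit. It was −0.403, −0.399 and −0.404 without 24-month 2, 3 or 5, which are not compared there. How much of these losses came with such shifts, rather than with the library left out, was not tested.

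Of the 8 entries of miR-143 and miR-145, miRNAs of the smooth muscle around vessels, all were tested, and 1 was called in each comparison with 1 month, 12.5% of the list where 19.2% of all tested entries were called at 12 months and 26.3% at 24 months. It was miR-145-y, at 27.3 ± 11.9, 102 ± 35.7 and 117 ± 48.8 CPM, which rose by 1.91 at 12 months (SE 0.51, adjusted p = 0.0256) and by 2.10 at 24 months (SE 0.51, adjusted p = 0.0157). The first call was lost without any 1 of the 12-month libraries or 24-month 3 or 5, and the second without 24-month 3 or 5. These fits too were filtered and scaled anew. The list medians were 1.28 and 1.18, beside −0.02 and −0.07 over all tested entries, and −0.15 between 12 and 24 months. Without 1-month 2 they were 0.79 and 0.70, beside 0.07 and −0.07. As a share of counts, which its most abundant entries set, the list took 7.07% and 8.63% in 1-month 1 and 3, between 5.09% and 7.26% in the later libraries, and 0.762% in 1-month 2. Its most abundant entries, chi-miR-143-3p at 0.46 (adjusted p = 0.595), chi-miR-145-5p at 0.44 (adjusted p = 0.620) and miR-143-y at 1.28 (adjusted p = 0.093), did not pass between 1 and 12 months. chi-miR-143-3p was 36871 ± 27246 CPM at 1 month and 50649.5 ± 14825 at 12 months.

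The miRNAs with profiles nearest to those of miR-126 were found by the root mean square difference between log2 CPM profiles over the 9 libraries, each centred on its own mean. For chi-miR-126-3p they were chi-miR-125a-3p (0.093), chi-miR-99b-5p (0.174), chi-miR-543-3p (0.195), chi-miR-3959-3p (0.198) and chi-miR-532-3p (0.248), where the median over 356 other goat-named entries was 0.771. For chi-miR-126-5p they were chi-miR-125b-3p (0.164), chi-miR-3959-3p (0.189), chi-miR-99a-5p (0.197), chi-miR-377 (0.204) and chi-miR-125a-3p (0.228), where the median was 0.742. The 2 arms of miR-126 differed from each other by 0.192, and 2 other entries were closer to each arm than its own partner was. Several of these have few reads, with chi-miR-125a-3p at 7.46 to 9.36 CPM and chi-miR-377 at 3.31 to 4.46 CPM as means of the ages, against 2207 to 2922 CPM for chi-miR-99b-5p. The arms varied little themselves, with an SD of 0.43 and 0.38 beside 0.86 for the median entry. Any entry that varied little therefore also lies near them, and the measure does not test whether entries rise and fall together.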

How the data were processed

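The deposited table by the authors holds raw read counts per mature miRNA entry, per the file headers, with each entry's sequence and its length in bases. The submitters' processing notes name FastQC and Bowtie, without versions. Neither the genome build, the miRNA database nor the rule for dividing reads between similar entries was given in the sources read. Low entries were removed with edgeR's own filter, at a minimum count of 10 and a total of at least 15. The others were scaled by TMM and tested with edgeR 4.0.16 in R 4.3.3 over all 9 libraries (robust quasi-likelihood test, 6 residual degrees of freedom), a step tested on simulated data. Alternatives used DESeq2 1.42.0, limma voom 3.58.1, other scalings, filters and sets of libraries. Arm ratios were tested by exact permutation with scipy 1.17.1. Replicates are separate goats, per the labels, and each entry has 1 count a goat. The shares of miR-126-x and miR-126-y were to be tested only if they were longer forms by sequence, which they were not. Named beside the 4 entries were the 3 most abundant and every called entry of each vascular list, and the 5 nearest profiles. The members and lists were chosen with earlier results of these data known.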

Additional observations from a re-analysis of the deposited data

How the results depend on the processing

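The goat-named arms of miR-126 passed the test under none of the alternatives, though the size and sign of these uncalled values moved. chi-miR-126-5p turned to −0.016 with library size alone and −0.063 with only the libraries of the 2 ages (12 against 1 month). For 24 against 1 month it turned to −0.31 with library size alone, −0.017 with RLE size factors and with DESeq2, −0.25 with no filter, −0.11 with a minimum count of 50 and −0.10 with only the 2 ages. Over TMM, library size alone, upper quartile and RLE scaling the median of all tested entries for 24 against 1 month lay between −0.36 and 0.07, and relative to that median chi-miR-126-5p stood at 0.05 to 0.08, chi-miR-126-3p at −0.28 to −0.24 and miR-126-x at 1.26 to 1.29. With no filter that median was −0.66, and the values relative to it were 0.41, 0.09 and 1.62.

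Leaving out 1 library at a time gave ranges of −0.59 to 0.27, −0.338 to 0.095 and −0.655 to 0.084 for chi-miR-126-3p (12 against 1, 24 against 12 and 24 against 1 month) and of −0.23 to 0.57, −0.345 to 0.053 and −0.298 to 0.342 for chi-miR-126-5p. For both arms at 24 against 1 month the lowest value was that without 1-month 2 and the highest that without 1-month 3. The ranges were −0.10 to 0.21 for miR-126-y at 24 against 12 months, 0.81 to 1.40 for miR-126-x at 24 against 1 month, −0.158 to 0.043 for the log2 arm ratio and −1.20 to 2.17 percentage points for the share of miR-126-y, both at 24 against 12 months.

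The call of miR-126-x at 24 months held with upper quartile scaling, RLE size factors and DESeq2. It was lost with library size alone (0.90, adjusted p = 0.138), limma voom (1.16, 0.0529), no filter (0.96, 0.216) and a minimum count of 50 (1.09, 0.0592). It was also lost with only the 2 ages (1.11, 0.136) and with the replicate block, a term for each title number (1.07, 0.27). In each of these settings 0 miR-126 entries were called. The count was also 0 where only goat-named entries were fitted, which leaves miR-126-x out. With merged arms its reads were added to chi-miR-126-5p, which stood at 0.045 (edgeR, adjusted p = 0.942), and 0 were called. The count of called vessel-growth entries at 24 months was 16 of 43 with DESeq2, against 10 in the main fit. Calls over all 937 tested entries also rose, from 246 to 358. Of the 8 smooth muscle entries, 0 were called with library size alone, 2 with DESeq2 and 3 without 1-month 2 at 12 months. At 24 months 3 and 4 were called with the last 2 settings. Over all 937 tested entries, library size alone called 181 and DESeq2 285 at 12 months. Without 1-month 2, 84 of 967 tested entries rose and 134 fell at 12 months, and 255 were called at 24 months.

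The numbers in the titles did not pair the goats: the deviations of same-numbered libraries from their age means correlated at 0.15, −0.16, −0.19, −0.20 and −0.19. With the replicate block 180 calls became 4 between 1 and 12 months, 246 became 71 between 1 and 24 months, and miR-126-y turned to 0.089 at 24 against 12 months. That block fits a term for each title number, which leaves fewer residual degrees of freedom than the 6 of the main fit. 1-month 1 and 12-month 4, whose numbers occur in no other library, then add nothing to the comparison of ages. The fall in calls therefore cannot be read as an effect of pairing. Over all entries, 24 against 12 months gave 5 calls with no filter and 2 without 12-month 5, and without 12-month 4 only 83 were called at 12 months. With DESeq2 the calls were 285 and 358 at 12 and 24 months against 1 month. The higher entries were 33.3% of the 246 calls, 19.2% with library size alone and 46.3% with upper quartile scaling, and 31.1% of the 180 calls, 14.4% and 39.3%. Leaving out 24-month 2, 3 or 5 gave 158, 116 and 161 calls at 24 months. With 3 goats an age, changes within the intervals given could not be resolved. Depth did not limit the miR-126 values, which rest on at least 618 counts in every library.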
